A study of Mus musculus with 6 samples.

Results

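Interferon-stimulated genes were followed in tumours grown from GLMT1 cells under the back skin of male mice. The set holds 33 listed genes, taken through every probe set whose single platform symbol is a listed gene. Of these, 31 were measured, by 49 probe sets, out of 18193 genes and 45037 probe sets in all. Isg15 was left out because its probe set also carries the symbol Gm9706, and Ifi44 had no probe set with that single symbol. For each gene the probe set with the highest mean over the 6 arrays was used. There were 3 tumours from TNKO hosts, GRS/A-TgH(TnC) mice described as tenascin-C-deficient, and 3 from WT hosts, GRS/A mice with intact tenascin-C, a glycoprotein of the extracellular matrix. Host mice were 8 weeks old when taken and 10 weeks old in the sample labels. All 6 tumours came from the single line GLMT1, named after a GRS/A lung metastasis, and the labels place the deficiency in the host and not in the inoculated cells. The comparison addresses what a host without tenascin-C does to the RNA of the tumour.

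Interferons are secreted proteins that act on neighbouring cells through paired receptors and JAK kinases. Type I interferons lead to a complex that holds STAT2 and IRF9 and binds the interferon-stimulated response element (ISRE), while interferon gamma acts on gamma-activated sites (GAS). The genes so induced block virus replication, sense foreign nucleic acids, modify proteins with ISG15 or ADP-ribose, and attract T cells to tumours through the chemokines CXCL9 and CXCL10.

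None of the 31 genes passed the test between hosts over all probe sets, with adjusted p-values of 0.1515 to 0.9698 by limma. The call rate in that fit was 0.175% of all probe sets and 0.121% of genes. On the deposited scale 22 of the 31 were lower on average in TNKO hosts and 9 higher, whereas 42.4% of all genes were lower. All 31 lay above the median level of all probe sets, and of the genes above it 52.18% were lower. Under both quantile normalization and subtraction of array medians all 31 were lower, as were 97.67% and 98.7% of all genes. Subtracting medians moves every gene by the same amount, more than any of the 9 higher genes differed, so its outcome was fixed in advance. The split of 22 and 9 depends on keeping the deposited scaling. In 7 genes all 3 TNKO tumours lay below all 3 WT tumours, against a rate of 11.1% of all genes in that direction, and the same 7 had an unadjusted p under 0.05, against 8.43% of all genes. Of genes above the median level 16.1% had that order and 12.1% were lower at that p. The 7 genes were Stat2, Irf9, Gbp3, Zbp1, Bst2, Dtx3l and Cxcl10. In no gene did all 3 TNKO tumours lie above all 3 WT tumours, while 15% of all genes had that order, and none was higher at an unadjusted p under 0.05, against 9.99% of all genes. The matching shares among genes above the median level were not counted. RNA was taken from whole tumours, so fewer cells of a type and less RNA per cell cannot be told apart.

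The deposited values are on a scale taken as log2, on which the typical gene differs very little between arrays. The widest span of any gene was 6647000 millionths of a unit. The median of the 31 genes spanned 64.4 millionths of a unit over the 6 arrays, with extremes of 1.58 for Ifi35 and 9962 for Cxcl9, and the median of all genes spanned 5.73 millionths. Values are therefore given as deviations from the gene's own mean over the 6 tumours, in millionths of a deposited log2 unit, and cannot be read as folds. Differences are TNKO minus WT, in millionths and in residual SDs, the SD of the gene within the groups. The median difference of the 31 genes was -0.82 residual SDs, against 0.28 for all genes and -0.095 for genes above the median level, on the deposited scaling. It was -0.99 against -0.81 under quantile normalization and -0.82 against -0.81 with array medians subtracted. Array medians lay within 180.5 millionths of the lowest in 5 arrays and 2398 millionths above it in TNKO tumour 3. The targeted gene Tnc stood at 8.80, 8.82 and 8.83 in TNKO tumours, against 9.01, 9.04 and 8.995 in WT tumours, a difference of -0.20 (SE 0.016, adjusted p = 0.0537). Whether its probes fall inside the disrupted stretch was not examined, so Tnc is no check of the genotype. Of the hybridisation controls, spiked-in bacterial and phage RNA, 18 of 18 stood higher in TNKO hosts on the deposited scaling, though 14 of 18 and 18 of 18 stood lower under quantile normalization and with array medians subtracted. Of the mouse control genes 12 of 16 stood lower, and 11 and 15 of 16 under those scalings. On the deposited scaling all TNKO lay above all WT tumours in 16 of the 18 hybridisation controls. Of the 16 mouse control genes 10 had all TNKO below all WT tumours and 2 above. Of 30 other control probe sets 0 lay below and 3 above, while 11.1% and 15% of all genes did so. Their part in the results below was not tested.

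**Figure D1:**
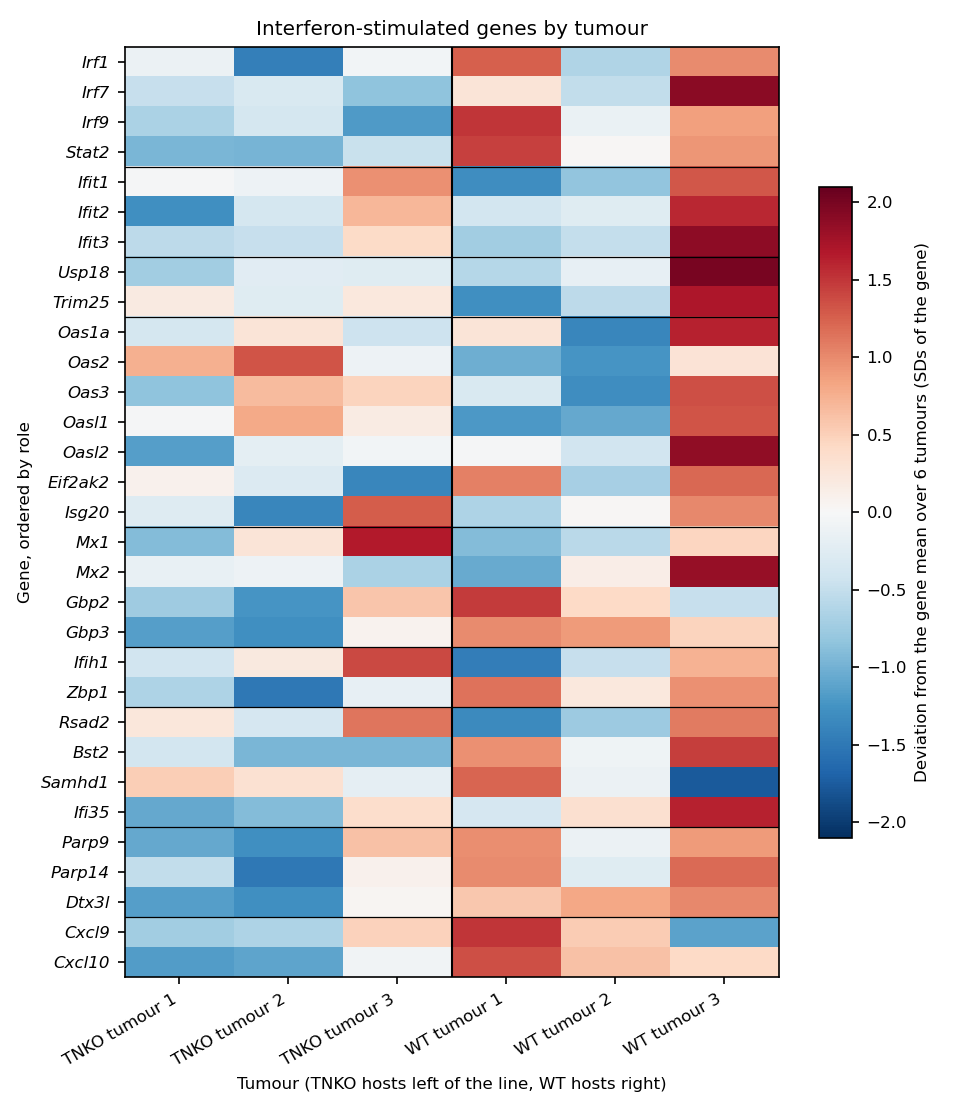
Each row is 1 of the 31 genes in order of role and each column 1 tumour. Colour gives the deviation from the gene's mean over the 6 tumours in SDs of that gene, on the deposited scaling. WT tumour 3 is the highest tumour in 16 rows and WT tumour 1 in 10.

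Promoter sequences are shown because interferon-stimulated genes are known to be induced through ISRE and GAS elements. Of the 33 listed genes 26 had a sequence in the RefSeq table (GRCm38.p6), which covers 250 bases before and 50 after each start site in the reference strain, not in GRS/A. The ISRE core was searched as 2 copies of the repeat unit, G followed by 3 As, with 2 bases between the copies, and the GAS as TTCNNNGAA, both on either strand, and matches of one motif may overlap those of the other. An ISRE core was found in 13 of the 26 genes (50%), against 3.99% of all genes in the table and 3.44% of all its 300-base windows. A GAS was found in 8 of the 26 (30.8%), against 9.55% of all genes and 8.3% of windows. Among the 7 genes with separated groups, 4 of the 6 with a promoter sequence held an ISRE core and 1 of the 6 a GAS. A match describes these letters and is not evidence of binding. The 250 bases before the start site follow for Stat2, Cxcl10 and Bst2, whose TNKO tumours all lay below the WT tumours, and for Ifit1 and Irf1, whose groups overlapped, read 5′ to 3′ on the gene's strand. Capitals mark the ISRE core, in Bst2 a pair of overlapping matches, and in Irf1 the GAS.
Stat2 (chr10:128270248-128270497, plus strand): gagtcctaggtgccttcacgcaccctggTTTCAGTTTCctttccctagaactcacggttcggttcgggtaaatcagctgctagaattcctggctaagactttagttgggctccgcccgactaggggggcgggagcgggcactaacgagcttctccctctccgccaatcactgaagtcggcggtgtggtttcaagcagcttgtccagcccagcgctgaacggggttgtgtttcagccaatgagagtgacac
Cxcl10 (chr5:92348890-92349139, minus strand): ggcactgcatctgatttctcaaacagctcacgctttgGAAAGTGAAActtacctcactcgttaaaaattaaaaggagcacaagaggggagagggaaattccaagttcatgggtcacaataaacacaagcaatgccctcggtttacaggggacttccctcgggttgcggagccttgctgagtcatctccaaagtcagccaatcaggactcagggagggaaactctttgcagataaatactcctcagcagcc
Bst2 (chr8:71537473-71537722, minus strand): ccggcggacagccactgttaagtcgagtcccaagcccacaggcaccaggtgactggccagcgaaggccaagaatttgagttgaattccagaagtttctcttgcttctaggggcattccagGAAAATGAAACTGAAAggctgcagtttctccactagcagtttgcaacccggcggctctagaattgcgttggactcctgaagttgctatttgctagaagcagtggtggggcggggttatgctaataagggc
Ifit1 (chr19:34640639-34640888, plus strand): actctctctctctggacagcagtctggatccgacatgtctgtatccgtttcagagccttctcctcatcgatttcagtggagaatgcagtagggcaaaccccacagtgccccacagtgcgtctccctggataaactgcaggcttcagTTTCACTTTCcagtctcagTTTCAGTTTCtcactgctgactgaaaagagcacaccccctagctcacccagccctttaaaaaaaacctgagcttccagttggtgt
Irf1 (chr11:53769764-53770013, plus strand): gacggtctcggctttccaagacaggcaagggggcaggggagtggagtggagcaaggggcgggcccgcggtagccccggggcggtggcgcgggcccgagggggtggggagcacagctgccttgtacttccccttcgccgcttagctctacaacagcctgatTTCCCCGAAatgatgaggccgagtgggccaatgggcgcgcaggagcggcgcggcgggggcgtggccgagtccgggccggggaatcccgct
The element began -222 bases from the start site in Stat2 and -213 in Cxcl10, on opposite strands. In Bst2 the matches began at -130 and -124, and in Ifit1 at -104 and -85. The GAS of Irf1 began at -90. Ifit1 thus holds 2 ISRE cores and Stat2 1.

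Among the signal transducers and transcription factors, 4 of 4 genes were lower on average in TNKO hosts and 2 had separated groups. Class counts here and below are on the deposited scaling, where 42.4% of all genes were lower and 11.1% separated in that direction. Among genes above the median level these shares were 52.18% and 16.1%. In every class all genes were lower under either other scaling, as were nearly all genes. Stat2, the partner of IRF9 in the type I interferon complex, deviated by -29.4, -29.8 and -14.2 in TNKO tumours 1, 2 and 3, against 44.0, 0.957 and 28.4 in WT tumours 1, 2 and 3. All 3 TNKO tumours lay below its mean and all 3 WT tumours above it, with WT tumour 2 close to the line. For Stat2 the difference was -48.9 millionths (SE 12.7), or -2.94 residual SDs (adjusted p = 0.152), the group means being -24.5 ± 8.86 in TNKO hosts and 24.5 ± 21.8 in WT hosts (SD, n = 3 each). Its dimmer probe set, with -45.97, -3.50 and -26.8 in TNKO tumours 1, 2 and 3, against 27.5, 7.32 and 41.4 in WT tumours 1, 2 and 3, also separated the groups. For that probe set the difference was -50.8 millionths (SE 14.7), or -2.63 residual SDs (adjusted p = 0.176). Irf9, the DNA-binding part of the same complex, deviated by -39.5, -22.1 and -71.1 in TNKO tumours 1, 2 and 3, against 89.7, -8.66 and 51.7 in WT tumours 1, 2 and 3. Here WT tumour 2 also lay below the mean, just above the nearest TNKO tumour, and WT tumour 1 was the highest. For Irf9 the difference was -88.5 millionths (SE 29.9), or -2.26 residual SDs (adjusted p = 0.214). Irf1, a transcription factor induced by interferon gamma, deviated by -7.62, -94.05 and -3.42 in TNKO tumours 1, 2 and 3, against 82.05, -41.6 and 64.6 in WT tumours 1, 2 and 3. The groups overlapped, since WT tumour 2 lay below 2 of the 3 TNKO tumours, and the difference was -70.1 millionths (SE 45.5), or -1.18 residual SDs (adjusted p = 0.458). Irf7, which drives transcription of type I interferon genes, differed by -1.22 residual SDs with WT tumour 3 alone far above its mean.

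**Figure D2:**
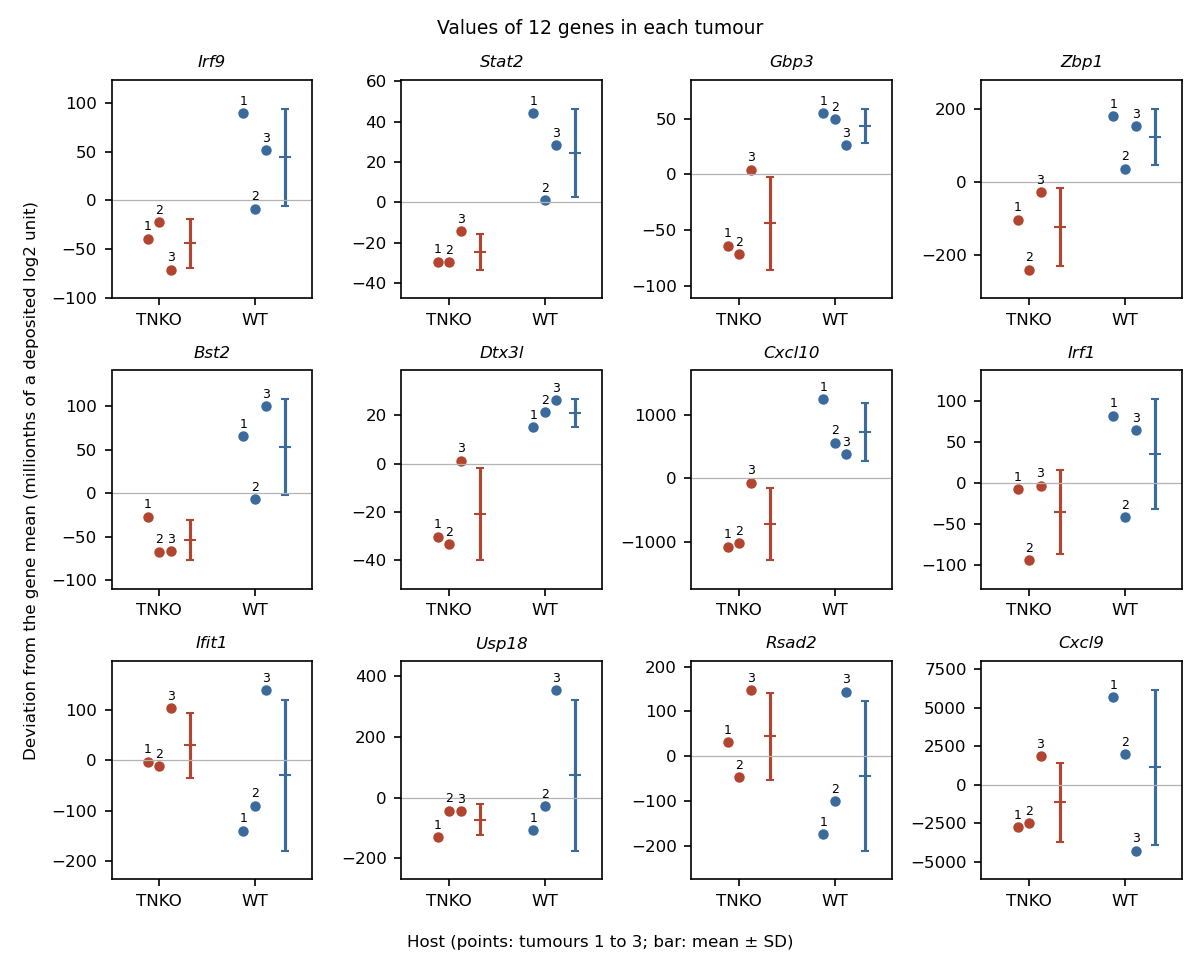
Deviation from the gene's mean in millionths of a deposited log2 unit, with TNKO hosts left of WT hosts in each panel, for the 7 genes with separated groups and 5 with overlapping groups. Numbered points are tumours 1 to 3, and the bar is the mean with its SD (n = 3). Stat2 and Dtx3l show all TNKO points below all WT points, while in Usp18 WT tumour 3 stands at 355 and the other WT points lie close to the TNKO points.

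In the PARP9-DTX3L group, whose proteins add ADP-ribose or ubiquitin to other proteins, 3 of 3 genes were lower on average, against 42.4% of all genes. Dtx3l, the ubiquitin ligase that pairs with PARP9, deviated by -30.4, -33.6 and 1.14 in TNKO tumours 1, 2 and 3, against 15.01, 21.4 and 26.4 in WT tumours 1, 2 and 3. WT tumours lay close together and TNKO tumour 3 stood apart from the other 2 TNKO tumours, towards the WT values. For Dtx3l the difference was -41.9 millionths (SE 10.8), or -2.96 residual SDs (adjusted p = 0.151). Its other probe set deviated by -48.8, -109.7 and -14.5 in TNKO tumours 1, 2 and 3, against 81.7, -2.61 and 93.9 in WT tumours 1, 2 and 3, again with separated groups, and differed by -2.29 residual SDs. Parp14, a mono-ADP-ribosyltransferase, deviated by -20.9, -61.8 and 3.44 in TNKO tumours 1, 2 and 3, against 40.4, -10.2 and 49.1 in WT tumours 1, 2 and 3. TNKO tumour 3 lay above WT tumour 2, so the groups overlapped, and the difference was -52.8 millionths (SE 24.8), or -1.63 residual SDs (adjusted p = 0.325). The dimmer probe set of Parp14 did separate the groups, at -2.73 residual SDs (adjusted p = 0.170). Parp9 spanned 2.03 millionths in all and differed by -1.36 residual SDs, with TNKO tumours 1 and 2 the 2 lowest.

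The chemokines, ligands of CXCR3 on activated T cells, had the widest spans of the 31 genes. Cxcl10 deviated by -1079, -1023 and -72.6 in TNKO tumours 1, 2 and 3, against 1239.7, 557 and 378 in WT tumours 1, 2 and 3. TNKO tumours 1 and 2 lay far below the mean, TNKO tumour 3 just under it and all WT tumours above it. For Cxcl10 the difference was -1449.8 millionths (SE 392), or -2.83 residual SDs (adjusted p = 0.162), with group means of -725 ± 566 in TNKO hosts and 725 ± 455 in WT hosts (SD, n = 3 each). Cxcl9 deviated by -2757, -2483 and 1839 in TNKO tumours 1, 2 and 3, against 5686, 1991 and -4276 in WT tumours 1, 2 and 3. WT tumours 1 and 3 were its highest and lowest values, so the spread within WT hosts exceeded the difference, which was -2267 millionths (SE 3053), or -0.57 residual SDs (adjusted p = 0.737). A dimmer probe set of Cxcl9 had the same highest and lowest tumours and differed by -0.68 residual SDs.

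Of the antiviral GTPases, 3 of 4 genes were lower on average and 1 had separated groups, against 42.4% and 11.1% of all genes. Gbp3, a guanylate-binding protein, deviated by -63.9, -71.3 and 4.39 in TNKO tumours 1, 2 and 3, against 55.1, 49.4 and 26.3 in WT tumours 1, 2 and 3. Its WT tumours all lay above the mean, while TNKO tumour 3 stood just above the mean and well above the other TNKO tumours. For Gbp3 the difference was -87.2 millionths (SE 23.98), or -2.77 residual SDs (adjusted p = 0.166). Gbp2, of the same family, deviated by -219, -363 and 169 in TNKO tumours 1, 2 and 3, against 435, 123 and -145 in WT tumours 1, 2 and 3. TNKO tumour 3 lay above WT tumours 2 and 3, so the groups overlapped, and the difference was -275 millionths (SE 216), or -0.97 residual SDs (adjusted p = 0.539). Both probe sets of Gbp2 were lower on average. Mx1 and Mx2, dynamin-like proteins that bind viral ribonucleoproteins, differed by 0.66 and -0.58 residual SDs, with TNKO tumour 3 the highest for Mx1 and WT tumour 3 for Mx2.

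The nucleic acid sensors were divided. Zbp1, a sensor of Z-form nucleic acids that can start necroptosis, deviated by -103, -241 and -27.7 in TNKO tumours 1, 2 and 3, against 182, 36.3 and 154 in WT tumours 1, 2 and 3. TNKO tumour 2 was far below the rest and WT tumours 1 and 3 far above. For Zbp1 the difference was -248 millionths (SE 71.6), or -2.64 residual SDs (adjusted p = 0.176). Its dimmer probe set also separated the groups and differed by -2.61 residual SDs. Ifih1, which encodes the double-stranded RNA sensor MDA5, deviated by -5.55, 2.86 and 19.1 in TNKO tumours 1, 2 and 3, against -19.9, -6.61 and 10.1 in WT tumours 1, 2 and 3. TNKO tumour 3 was its highest and WT tumour 1 its lowest value, and the difference was 10.95 millionths (SE 10.6), or 0.79 residual SDs (adjusted p = 0.622).

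Among other antiviral effectors, Bst2, which encodes tetherin and holds budding virus at the cell surface, deviated by -26.8, -66.96 and -66.5 in TNKO tumours 1, 2 and 3, against 66.2, -6.51 and 101 in WT tumours 1, 2 and 3. All TNKO tumours lay below all WT tumours, though WT tumour 2 was closer to TNKO tumour 1 than to the other WT tumours. For Bst2 the difference was -107 millionths (SE 32.02), or -2.55 residual SDs (adjusted p = 0.184). Bst2 is also a marker of mouse plasmacytoid dendritic cells. Rsad2, which encodes viperin, deviated by 30.7, -46.5 and 148 in TNKO tumours 1, 2 and 3, against -175, -101 and 144 in WT tumours 1, 2 and 3. Tumour 3 was the highest of its group in both hosts, and the difference was 88.1 millionths (SE 104), or 0.64 residual SDs (adjusted p = 0.696). Its dimmer probe sets differed by -0.18 and -1.95 residual SDs, the second with separated groups, so its probe sets pointed both ways. Ifi35, a partner of NMI, deviated by -0.630, -0.530 and 0.220 in TNKO tumours 1, 2 and 3, against -0.210, 0.200 and 0.950 in WT tumours 1, 2 and 3. Its groups overlapped, and the difference was -0.627 millionths (SE 0.455), or -1.18 residual SDs (adjusted p = 0.505). All 3 of its probe sets were lower on average. Samhd1, a dNTP hydrolase, differed by 0.40 residual SDs, and of its 5 probe sets 2 were lower and 3 higher.

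The IFIT genes, whose proteins bind viral RNA and block its translation, had overlapping groups throughout. Ifit1 deviated by -2.52, -11.5 and 104 in TNKO tumours 1, 2 and 3, against -140.2, -90.2 and 140.3 in WT tumours 1, 2 and 3. Tumour 3 was the highest in both hosts, and WT tumours 1 and 2 were the 2 lowest of the 6. For Ifit1 the difference was 60.1 millionths (SE 87.9), or 0.52 residual SDs (adjusted p = 0.759). Ifit2 deviated by -27.5, -7.90 and 14.99 in TNKO tumours 1, 2 and 3, against -8.29, -5.30 and 33.9 in WT tumours 1, 2 and 3. Its order also put tumour 3 of each host on top, and the difference was -13.6 millionths (SE 17.1), or -0.61 residual SDs (adjusted p = 0.717). Ifit3 differed by -0.39 residual SDs, with WT tumour 3 at 46.4 and the other 5 tumours between -18.0 and 10.1.

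The ISG15 pathway was represented by Usp18 and Trim25. Usp18, the protease that removes ISG15 and dampens the type I receptor, deviated by -131, -43.8 and -44.03 in TNKO tumours 1, 2 and 3, against -107, -29.4 and 355 in WT tumours 1, 2 and 3. WT tumour 3 was the 1 tumour above the mean. For Usp18 the difference was -146 millionths (SE 136), or -0.82 residual SDs (adjusted p = 0.610). Trim25, a ligase for ubiquitin and ISG15, deviated by 3.18, -4.40 and 3.68 in TNKO tumours 1, 2 and 3, against -22.1, -9.35 and 29.03 in WT tumours 1, 2 and 3. The 3 TNKO values lay within the range of the WT values, and the difference was 1.64 millionths (SE 14.6), or 0.09 residual SDs (adjusted p = 0.970). Its dimmer probe sets differed by -0.83 and -1.76 residual SDs.

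Of the enzymes activated by double-stranded RNA and the exonuclease Isg20, 4 of 7 were lower on average, 3 higher and none had separated groups. Oas2, an oligoadenylate synthetase that activates RNase L, deviated by 5.10, 9.0 and -0.740 in TNKO tumours 1, 2 and 3, against -6.96, -8.35 and 1.96 in WT tumours 1, 2 and 3. TNKO tumours 1 and 2 were its highest values, and the difference was 8.90 millionths (SE 4.02), or 1.69 residual SDs (adjusted p = 0.310). Eif2ak2, which encodes the kinase PKR, deviated by 1.09, -3.54 and -16.5 in TNKO tumours 1, 2 and 3, against 12.8, -8.31 and 14.5 in WT tumours 1, 2 and 3. Its brightest probe set had overlapping groups, with a difference of -12.6 millionths (SE 8.43), or -1.14 residual SDs (adjusted p = 0.470). A dimmer probe set of Eif2ak2 deviated by -181, -89.8 and -163 in TNKO tumours 1, 2 and 3, against 124, 66.5 and 243 in WT tumours 1, 2 and 3. There the groups were separated by a gap wider than the spread within TNKO hosts, and the difference was -289 millionths (SE 55.1), or -4.00 residual SDs (adjusted p = 0.107). The third probe set also separated the groups, at -2.13 residual SDs, so the overlap for this gene rests on the probe set chosen. Oasl1, which in mice represses translation of Irf7, deviated by -1.40, 44.1 and 9.92 in TNKO tumours 1, 2 and 3, against -66.6, -59.6 and 73.5 in WT tumours 1, 2 and 3. WT tumour 3 was its highest value and the other 2 WT tumours its lowest, with a difference of 35.1 millionths (SE 44.5), or 0.60 residual SDs (adjusted p = 0.719). Oas1a, Oas3, Oasl2 and Isg20 differed by -0.32, 0.17, -1.002 and -0.22 residual SDs.

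**Figure D3:**
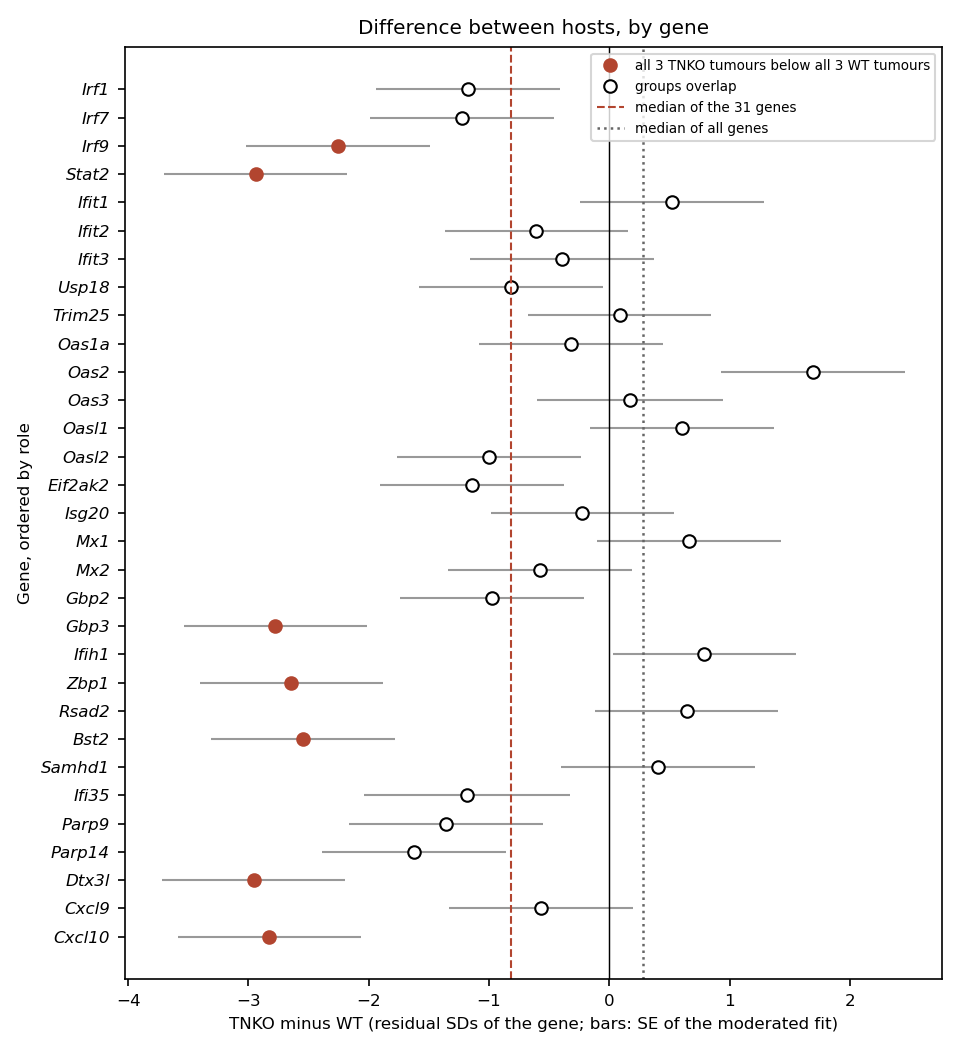
Difference between hosts, TNKO minus WT, in residual SDs of each of the 31 genes on the deposited scaling, with bars for the SE of the moderated fit. The 7 filled points are genes whose 3 TNKO tumours all lay below the 3 WT tumours and run from -2.96 to -2.26. The dashed line marks the median of the 31 genes at -0.82 and the dotted line that of all genes at 0.28. With quantile normalization or array medians subtracted all 31 lie below 0, as do nearly all genes.

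Taken over probe sets in place of genes, 11 of the 31 genes had several. All probe sets were lower on average in 8 of the 11, and in Rsad2, Samhd1 and Trim25 they went both ways. The 18 probe sets that were not the brightest of their gene were lower in 16 of 18, against 45.5% of all probe sets, and separated the groups in that direction in 8 of 18, against 13.8%. Several of them measure the same gene in the same RNA and are not independent of the brightest. Stat2, Dtx3l and Zbp1 had separated groups and an unadjusted p under 0.05 in 2 of 2 probe sets each, the lowest adjusted p among these 6 being 0.1515.

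On the deposited scaling, the tumours of WT hosts differed among themselves in which genes they led. The order was not counted under the other scalings. Subtracting medians lowers TNKO tumour 3 most, its median lying 2398 millionths above the lowest, beside a median span of 64.4 for the 31 genes. WT tumour 3 was the highest of all 6 tumours in 16 of the 31 genes, against 18.55% of all genes. These were Irf7, Ifit1, Ifit2, Ifit3, Usp18, Trim25, Oas1a, Oas3, Oasl1, Oasl2, Eif2ak2, Mx2, Bst2, Ifi35, Parp14 and Dtx3l, which include the 3 IFIT genes and 4 of the 5 oligoadenylate synthetase family genes. WT tumour 1 was the highest in 10, against 11.88% of all genes. These were Irf1, Irf9, Stat2, Gbp2, Gbp3, Zbp1, Samhd1, Parp9, Cxcl9 and Cxcl10, which include both chemokines and both guanylate-binding proteins. WT tumour 1 was also the lowest of the 6 in 7 genes, Ifit1, Ifit3, Trim25, Oasl1, Mx2, Ifih1 and Rsad2, near the 18.26% of all genes in which it was lowest. TNKO tumour 1 and WT tumour 2 led none of the 31, against 19.92% and 11.8% of all genes. TNKO tumour 2 was the lowest in 10, against 14.66% of all genes. These sets were read off the values and were not tested. An ISRE core was found in 6 of the 13 promoters of genes led by WT tumour 3 (46.2%) and in 4 of the 8 of genes led by WT tumour 1 (50%). A GAS was found in 5 of those 13 (38.5%) and 2 of those 8 (25%).

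The count of lower genes rested in part on WT tumour 3. Without it 18 of the 31 were lower and 13 higher, against 42.8% of all genes lower, and the median difference was -0.53 residual SDs. In that fit 4 genes were lower at an unadjusted p under 0.05 (6.15% of all genes) and 4 were higher (7.33% of all genes). The 4 lower were Stat2, Gbp3, Dtx3l and Cxcl10, and the 4 higher were Ifit1, Trim25, Oas2 and Oasl1, none past adjustment (adjusted p from 0.22). Leaving out any other tumour kept 22 to 24 of the 31 lower, while between 41.9% and 43.9% of all genes were lower. At an unadjusted p under 0.05, 3 genes were lower without TNKO tumour 1 (6.79% of all genes), 3 without TNKO tumour 2 (6.5%) and 3 without WT tumour 1 (7.15%). The number was 6 without TNKO tumour 3 (7.57% of all genes) and 9 without WT tumour 2 (7.65%). Stat2 and Dtx3l were the 2 genes of the 7 whose unadjusted p stayed under 0.05 with each of the 6 tumours left out in turn, between 0.00258 and 0.0490 for Stat2 and between 0.000367 and 0.0482 for Dtx3l. The share of all genes that stayed so was not counted. The 7 had been picked from the same tumours, so their p-values give no independent support.

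**Figure D4:**
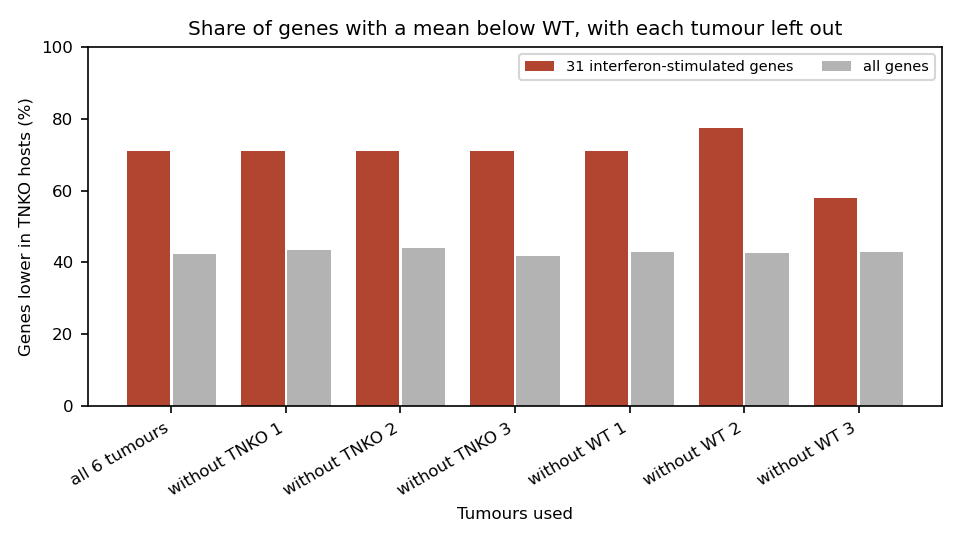
Share of genes with a lower mean in TNKO than in WT hosts on the deposited scaling, with all 6 tumours and with each left out, for the 31 interferon-stimulated genes (left bar of each pair) and all genes (right bar). The count for the 31 genes was 18 of 31 without WT tumour 3, and that for all genes stayed between 41.9% and 43.9%. After quantile normalization or subtraction of array medians nearly all genes of either kind are lower.

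Other genes of the interferon pathway were measured in 95 cases, and none passed (adjusted p from 0.0849). On the deposited scaling 64 were lower and 31 higher, against 42.4% of all genes lower. Of the 83 above the median level 58 were lower, against 52.18% of all genes above it. Under quantile normalization and with array medians subtracted 94 of 95 were lower, as were 97.67% and 98.7% of all genes. All 3 TNKO tumours lay below all WT tumours in 15 and above them in 4, against 11.1% and 15% of all genes. Of 48 further interferon-stimulated genes 37 were lower, 8 with all TNKO below all WT tumours. Xaf1, a pro-apoptotic partner of XIAP, deviated by -114, -140.2 and -93.5 in TNKO tumours 1, 2 and 3, against 108, 30.9 and 208 in WT tumours 1, 2 and 3, with all TNKO values below all WT values and a difference of -232 millionths (SE 49.5), or -3.57 residual SDs (adjusted p = 0.122). Irgm1, an immunity-related GTPase, differed by -556 millionths (SE 123), or -3.43 residual SDs (adjusted p = 0.127), and Ube2l6, the ISG15-conjugating enzyme, by -19.6 millionths (SE 4.33), or -3.46 residual SDs (adjusted p = 0.126). Both had separated groups.

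Of 10 measured ligands, the secreted interferons, 3 were lower and 7 higher on average on the deposited scaling, near the 42.4% of all genes that were lower, and all 10 were lower under either other scaling. Ifna2 deviated by 5.47, 11.4 and 19.6 in TNKO tumours 1, 2 and 3, against -8.86, -7.58 and -19.99 in WT tumours 1, 2 and 3, with all TNKO above all WT values, and differed by 24.3 millionths (SE 5.32), or 3.49 residual SDs (adjusted p = 0.124). Ifnz differed by 64.5 millionths (SE 13.6), or 3.62 residual SDs (adjusted p = 0.119), also with separated groups, and Ifna4 by 1.47 residual SDs with overlapping groups. The hybridisation controls stood higher too, in 18 of 18, and their part was not tested. Ifna2 and Ifna4 had low mean levels of 6.23 and 5.89, below the array medians of 6.57, and Ifnz stood at 6.94. Whether the ligand signals exceed background was not tested. Of 6 receptor genes 5 were lower, and all 6 under either other scaling. Ifnar1 and Ifnar2, the type I receptor chains, differed by -0.80 and -0.94 residual SDs, Ifngr1 by 0.68 and Ifngr2 by -2.07 (adjusted p = 0.238), all with overlapping groups.

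Upstream of the ligands, Mavs, the mitochondrial adaptor of RNA sensing, had the lowest adjusted p of the 95. It deviated by -5.02, -15.1 and -17.3 in TNKO tumours 1, 2 and 3, against 9.46, 14.3 and 13.6 in WT tumours 1, 2 and 3. The WT values lay close together and above all TNKO values, and the difference was -24.9 millionths (SE 3.81), or -5.00 residual SDs (adjusted p = 0.0849). Ddx58, which encodes the RNA sensor RIG-I, and Tbk1, the kinase that activates IRF3, differed by -2.48 and -3.36 residual SDs with separated groups, within a list of 12 of which 5 were lower and 7 higher, and all 12 lower under either other scaling. Of 11 JAK, STAT and IRF genes 7 were lower, and all 11 under either other scaling. Irf3, which starts interferon transcription, stood higher in all 3 TNKO tumours at 4.27 residual SDs (adjusted p = 0.139) by its brightest probe set, but lower over the mean of its probe sets, at -8.27 millionths against 1.30. Irf2bp2 stood lower at -3.56 residual SDs and Irf2, a repressor of interferon-stimulated genes, at -2.04 with separated groups as well. Of 8 negative regulators 7 were lower, against 42.4% of all genes, and all 8 under either other scaling. They were led by Socs3, an inhibitor of JAK signalling, at -2.99 residual SDs. Ptpn1 and Ptpn6, tyrosine phosphatases, differed by -2.51 and -1.05.

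**Figure D5:**
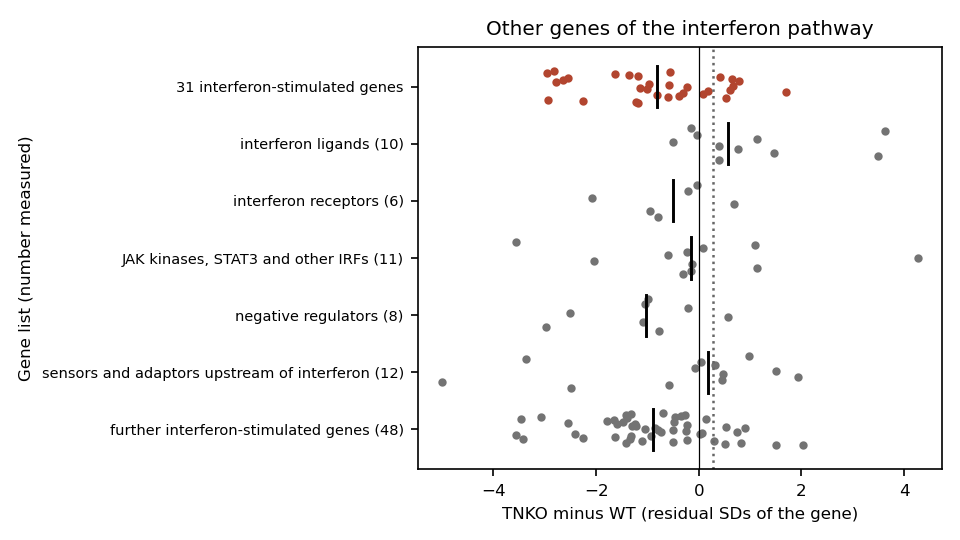
Difference between hosts, TNKO minus WT, in residual SDs, for the 31 interferon-stimulated genes and the other pathway lists, on the deposited scaling, with the number of genes measured in brackets. Points are genes, black bars list medians and the dotted line the median of all genes at 0.28. The ligands have a median of 0.58 and the further interferon-stimulated genes of -0.90. Under the other scalings nearly all lie below 0, as do nearly all genes measured.

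Markers of other cells that a tumour can hold were counted on the deposited scaling, on which 42.4% of all genes were lower. All lists but the adipocyte one were mostly lower under either other scaling, with macrophage and monocyte markers lower in 11 of 12 and T cell and NK cell markers in 10 of 10. Under those scalings nearly all genes were lower. On the deposited scaling, macrophage and monocyte markers were lower in 3 of 12 and higher in 9, and their summed deviation ran from 827 to 1568 millionths in TNKO hosts, against -3955 to 798 in WT hosts. Mrc1 carried most of that sum, at 1434, 668 and 999 in TNKO tumours 1, 2 and 3, against 647, 113 and -3862 in WT tumours 1, 2 and 3. T cell and NK cell markers were lower in 4 of 10, about the share of all genes, with overlapping sums of -89.6 to 166 in TNKO hosts and -136 to 156 in WT hosts. Plasmacytoid dendritic cell markers were lower in 2 of 6, with overlapping sums of -368 to 1226 in TNKO hosts and -387 to 66.1 in WT hosts, carried mostly by Ly6d. B cell and plasma cell markers were higher in 7 of 7, with sums of 1968 to 2686 in TNKO hosts and -3340 to -1469 in WT hosts. Those sums were carried by Jchain, which differed by 4572 millionths (adjusted p = 0.0702), while the other 6 differed by 0.017 (Tnfrsf17) to 2.20 (Pax5). Neutrophil and endothelial markers were higher in 7 of 7 and 8 of 8, epithelial markers lower in 5 of 7, skeletal muscle markers lower in 8 of 8 and adipocyte markers higher in 7 of 7. The muscle and adipocyte lists had the widest sums, and no gene of either had separated groups. Muscle sums ran from -3504000 to 2081000 millionths in TNKO hosts, against 741600 to 2280000 in WT hosts. Adipocyte sums ran from -393600 to 1954000 in TNKO hosts, against -1665000 to 95110 in WT hosts. Myh1 deviated by -2021790, -1543710 and 1088350 in TNKO tumours 1, 2 and 3, against 756937, 1256550 and 463660 in WT tumours. WT tumour 3 had the lowest sum of the macrophage, T cell and NK cell, B cell, neutrophil, endothelial and adipocyte lists. None of these marker genes passed adjustment, and no marker can be at 0 on a log2 scale. Their part in the differences of the 31 genes was not tested.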

How the data were processed

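Total RNA of 6 tumours, 3 per host genotype, was labelled from 100 ng and hybridised to 1-colour Affymetrix arrays, per the labels' protocols. The deposited values, 1 for each probe set of each array, were normalized by the authors and read as log2 because of their range. The submitters' processing notes name R 2.7.2. How values were summarized and normalized, and the log base, were not given in the sources used here. There is no read depth, and the number of arrays limits precision.

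After 64 control probe sets were left out, 45037 remained: 34945 with 1 gene symbol, 932 with several and 9160 with none in the platform annotation, of which 0 symbols changed by gene identifier. TNKO was compared with WT by limma 3.58.1 in R 4.3.3 (lmFit, eBayes), two-sided, with Benjamini-Hochberg adjustment over all 45037 probe sets at 0.05. An exact permutation test of 3 against 3 cannot go below 0.1. The members, role classes, pathway and marker lists were chosen with earlier results of these data known, so no p was adjusted over a list alone. All members are named. Values per tumour are given for the 2 members of each role class with the smallest unadjusted p and the 1 with the widest span. Up to 3 genes of each pathway list are named by unadjusted p, and Ifnar1, Ifnar2, Ifngr1 and Ifngr2 always. Among pathway genes, values per tumour are given for Xaf1, Ifna2 and Mavs, by no set rule. Dimmer probe sets shown per tumour and the markers named were chosen after their values were seen. The fit was tested on simulated data of 45037 probe sets, where it called 6 of 50 probe sets shifted by 5 residual SDs, 36 of 50 shifted by 10, 49 of 50 by 20, 50 of 50 by 40 and 4 unshifted ones. Alternatives were 2 scalings, eBayes with a trend or robust, a filter on dim probe sets, the mean over probe sets, a replicate block and leaving out each array.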

Additional observations from a re-analysis of the deposited data

How the results depend on the processing

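None of the 31 genes or of the other pathway genes tested passed the adjusted threshold by limma under any alternative run. The 7 genes lower at an unadjusted p under 0.05 (8.43% of all genes) became 3 under quantile normalization (1.81% of all genes), 0 with array medians subtracted (0.0605%), 6 with a replicate block (7.11%, with 1 member higher), 9 with the mean over probe sets (13.2%), and 3 to 9 with a tumour left out (6.15% to 7.65%). The 7 with all TNKO below all WT tumours (11.1% of all genes) became 8 (14.1%), 5 (1.47%), 7 (11.1%) and 9 (16.3%) in the same settings and 7 to 14 with a tumour left out (13.8% to 16.3%), 14 being without WT tumour 2 (15.9%). The median of -0.82 residual SDs ran from -1.02 to -0.53 with a tumour left out and was -0.94 with the block. With only probe sets above the median level, where all 31 lay, the 2 counts of 7 stood beside 12.1% and 16.1% of genes. The median of -0.82 then stood beside -0.095. Of all probe sets 79 passed, against 0 under quantile normalization (591 at an unadjusted p under 0.05), 68 with medians subtracted, 285 of 22518 above the median level, 71 with a trend, 78 with robust eBayes, 0 with the block (7816 at an unadjusted p under 0.05) and 0 to 73 with a tumour left out. No pairing by replicate number was apparent. Deviations of same-numbered tumours correlated at 0.0829, -0.0195 and 0.0155 over probe sets, and those of different-numbered tumours at -0.146 to 0.109. The labels give no shared litter or day, and 3 arrays per group cannot exclude one.

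Quantile normalization moved the median difference of all genes to -560.2 millionths and of the 31 genes to -810.3, and subtracting medians moved them to -763.6 and -774.4, beside a median of TNKO tumour 3 far above the other arrays. Subtracting medians moves every gene by the same amount, set by the array medians. A sign turned by it is arithmetic and no result about the gene. With nearly all genes moved the same way, 14 named genes that were higher became lower in TNKO hosts under both scalings, several of them less so than the median of all genes. Under quantile normalization they stood, in millionths, at -805 (Ifit1), -1478 (Trim25), -666 (Oas2), -810.3 (Oas3), -1080 (Oasl1), -553 (Mx1), -670.1 (Ifih1), -335 (Rsad2), -158 (Samhd1), -494 (Ifnz), -498 (Ifna2), -713 (Ifna4), -603 (Irf3) and -1055 (Ifngr1). With medians subtracted they stood at -704 (Ifit1), -762 (Trim25), -755 (Oas2), -764 (Oas3), -729 (Oasl1), -751 (Mx1), -753 (Ifih1), -676 (Rsad2), -764 (Samhd1), -699 (Ifnz), -739.5 (Ifna2), -761 (Ifna4), -762 (Irf3) and -762 (Ifngr1). The mean over probe sets turned Trim25 (-2.95), Rsad2 (-133), Samhd1 (-0.112) and Irf3 (-8.27). Leaving out 1 tumour gave both signs for Cxcl9 (-4972 to 8.74), Ifit2 (-24.5 to 0.00467), Ifit3 (-22.2 to 9.96), Ifngr1 (-0.124 to 3.27), Isg20 (-9.29 to 3.70), Mx2 (-8.51 to 1.04), Oas1a (-8.22 to 2.75), Oas3 (-0.605 to 1.32), Samhd1 (-0.245 to 0.858) and Trim25 (-9.02 to 16.6). The cause of the changes of sign with the mean over probe sets or with a tumour left out was not tested.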
